A study of Mus musculus with 7 samples.

Results

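Regulatory T cells (Tregs) were the 1058 cells that the authors' deposited annotation names Tregs, of 28644 annotated cells in 7 libraries. The cells came from mouse brains bearing CT-2A glioma, a mouse glioma line injected into the brain, and were profiled by droplet single-cell RNA sequencing from the 5′ end of transcripts, with 1 library per mouse. The 4 KO mice carried Sall1CreERT2 and Siglece fl/fl and the 3 WT mice carried Siglece fl/fl without the driver, so the controls were floxed too. All 7 mice, engrafted at 8 to 12 weeks of age with 50000 tumor cells, were given 2.5 mg tamoxifen per injection, daily from day 7 to day 21 and every other day after that. Cell suspensions of the tumor-bearing hemispheres were stored frozen, and after thawing the viable cells stained for CD45, CD11b or both were sorted. Sall1 is a transcription factor of microglia, so the driver was not aimed at T cells. Siglece, an inhibitory receptor for sialic acids on myeloid cells, had 16 UMIs (unique molecular identifiers, 1 per counted transcript) in all Tregs together, and Sall1 had 1.

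Tregs are CD4 T cells that restrain immune responses. They are defined by the transcription factor Foxp3 and by constant display of the high-affinity interleukin-2 receptor, whose alpha chain is Il2ra. They act through the checkpoint receptor Ctla4, through cytokines such as interleukin-10, by consuming interleukin-2, and in tissues through repair factors such as amphiregulin. In tumors they are often activated and are a known brake on antitumor T cells.

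The 4 KO libraries held 54, 192, 126 and 379 Tregs and the 3 WT libraries held 5, 246 and 56. WT replicate 1, with 5 Tregs, was left out of all sums and fits, so levels and the comparisons of gene levels between genotypes rest on 4 KO and 2 WT mice; shares of cells are given for all 7. The 6 remaining sums ranged from 282271 UMIs in WT replicate 3 to 1218365 in KO replicate 4, and the median Treg held 3376.5 UMIs over all mice. The comparison cells were the other non-proliferating CD4 annotations of the authors, namely 786 naive or early activated, 1364 follicular helper (Tfh) and 1249 T helper 1 (Th1) cells. A mixed annotation of 414 proliferating CD4 cells and Tregs was kept apart. Of the 1058 Tregs, 30 (2.84%) had a cell barcode that also occurred in another library, against 3.23% of all cells, and 0 had the barcode of a Treg in another library. By Xist and Y-linked genes, 3 of the mice were female (KO replicates 1 and 2, WT replicate 3) and 4 male.

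The 4 defining markers were all higher in Tregs than in the other CD4 cells of every mouse. Levels are CPM, the UMIs of a gene per 1000000 UMIs of the class in that mouse. Foxp3 stood at 699, 475, 422 and 470 CPM in Tregs of KO replicates 1 to 4 and at 629 and 500 in WT replicates 2 and 3, against 13.2 ± 10.9 CPM (mean ± SD, n = 6) in the other CD4 cells. Il2ra was 850 ± 187 CPM in Tregs against 138 ± 52.1. Ikzf2 (Helios), a transcription factor of stable Tregs, was 627 ± 89.6 CPM against 52.1 ± 13.0. Ctla4 was 1538 ± 168 CPM against 661 ± 219, the smallest ratio of the 4, and Tfh (738 CPM) and Th1 cells (704 CPM) carried it as well. Cd4 itself was 308 ± 83.0 CPM in Tregs and 594 ± 82.0 in the other CD4 cells, lower in Tregs of all 6 mice. These genes define the annotation, so the comparisons between annotations are descriptions with no test.

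**Figure D1:**
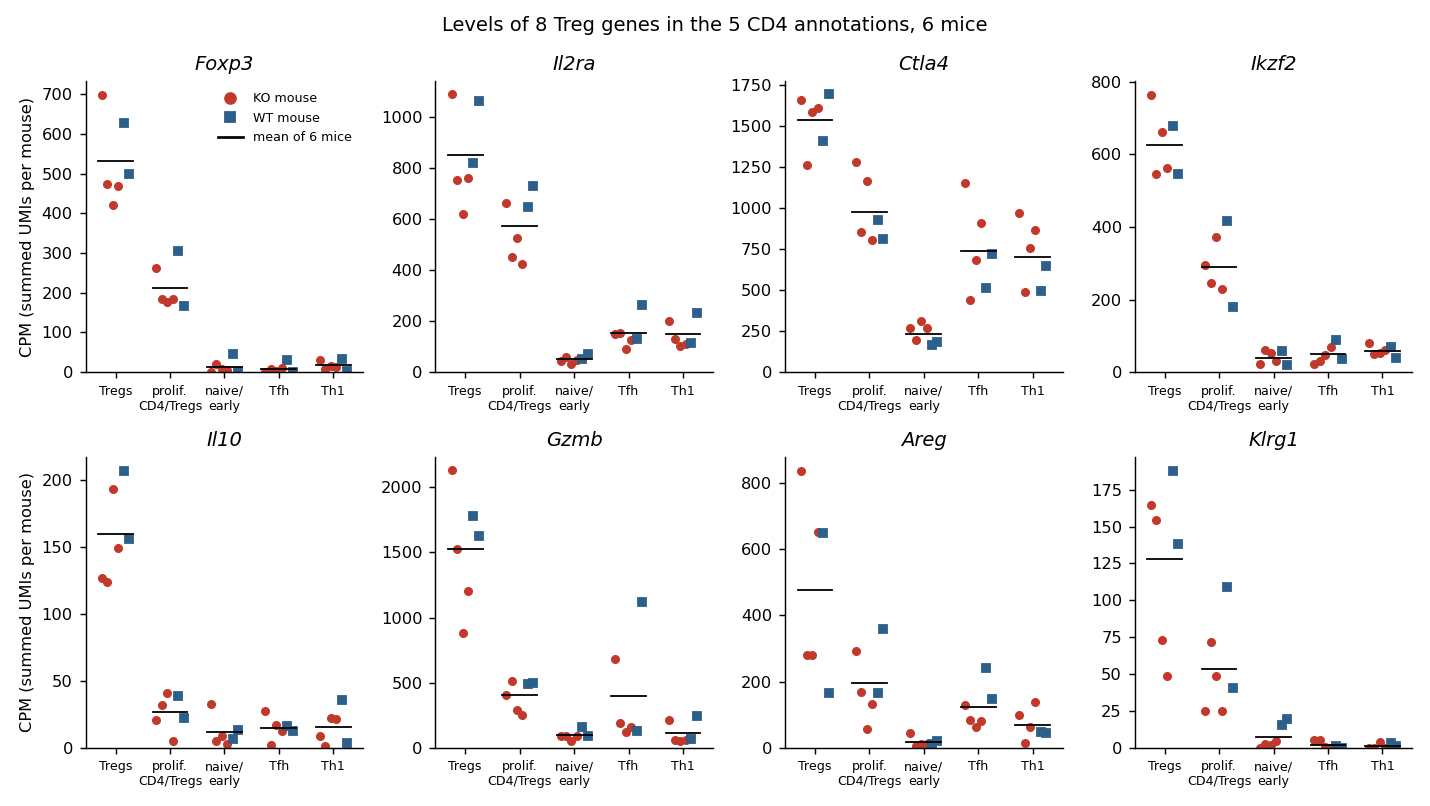
CPM of 8 Treg genes (vertical axis, from 0) in the 5 CD4 annotations (horizontal axis); each point is 1 mouse, circles are KO, squares are WT, and bars are means of 6 mice. Foxp3 lies at 422 to 699 CPM in Tregs and near the floor in naive/early, Tfh and Th1 cells, with the proliferating mixture between, while Areg spreads from 167 to 838 CPM among Tregs.

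Counted per cell, Foxp3 UMIs marked Tregs as a population rather than every cell. After each cell was thinned to 1500 UMIs, which left out 25 shallower Tregs, 42.5% of Tregs (439 of 1033, exact binomial interval 39.5 to 45.6%) had a Foxp3 UMI, and 61.7% did without thinning. The thinned share was 1.62% in naive/early, 0.998% in Tfh and 1.85% in Th1 cells. In B cells, which lack Foxp3, 0 of 820 thinned cells had one, which allows a share of up to 0.449%, and 0.952% had one unthinned at a median depth of 7302 UMIs. The proliferating mixture lay between, at 22.9% (95 of 414), with 213 ± 56.2 CPM. Across mice the thinned Foxp3 share in Tregs was 50, 43.3, 34.9 and 37.6% in KO and 60 (5 cells), 53.1 and 33.9% in WT, with overlapping groups. Intervals cover counting error only.

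Of 5377 genes at a mean of 25 CPM or more, 185 (3.44%) were at least 2-fold higher in Tregs on average and higher in all 6 mice, and 137 (2.55%) were lower by the same rule. Of the 20 genes of a 22-gene Treg identity list that reached 25 CPM, 15 met the higher rule and 1, Nrp1, the lower one. In the lists that follow, 2-fold refers to the mean over mice, with 1 direction in all 6 mice. The 12 genes with the highest ratio, among those at 50 CPM or more in Tregs, were Foxp3 (log2 ratio 5.55 ± 1.00, mean ± SD over 6 mice), Klrg1 (5.19), Frmd5 (4.98), Lrrc32 (4.94), Rln3 (4.70), Rapsn (3.89), Gm6637 (3.84), Il10 (3.65), Ccr2 (3.61), Itgb8 (3.59), Ikzf2 (3.59) and Ncmap (3.57). Ratios use a pseudocount of 1 CPM. Several are parts of known Treg machinery. Lrrc32 (GARP) holds latent TGF-beta on the Treg surface, and Itgb8 is the integrin chain that releases it. Others have textbook roles in other tissues: Rln3 encodes the neuropeptide relaxin-3, Rapsn anchors acetylcholine receptors at muscle synapses, and Ncmap is a protein of myelin. Rln3 stood at 75.5 ± 28.2 CPM in Tregs against 2.41 ± 2.21 in other CD4 cells, and Rapsn at 143 ± 33.9 against 9.12 ± 4.10.

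**Figure D2:**
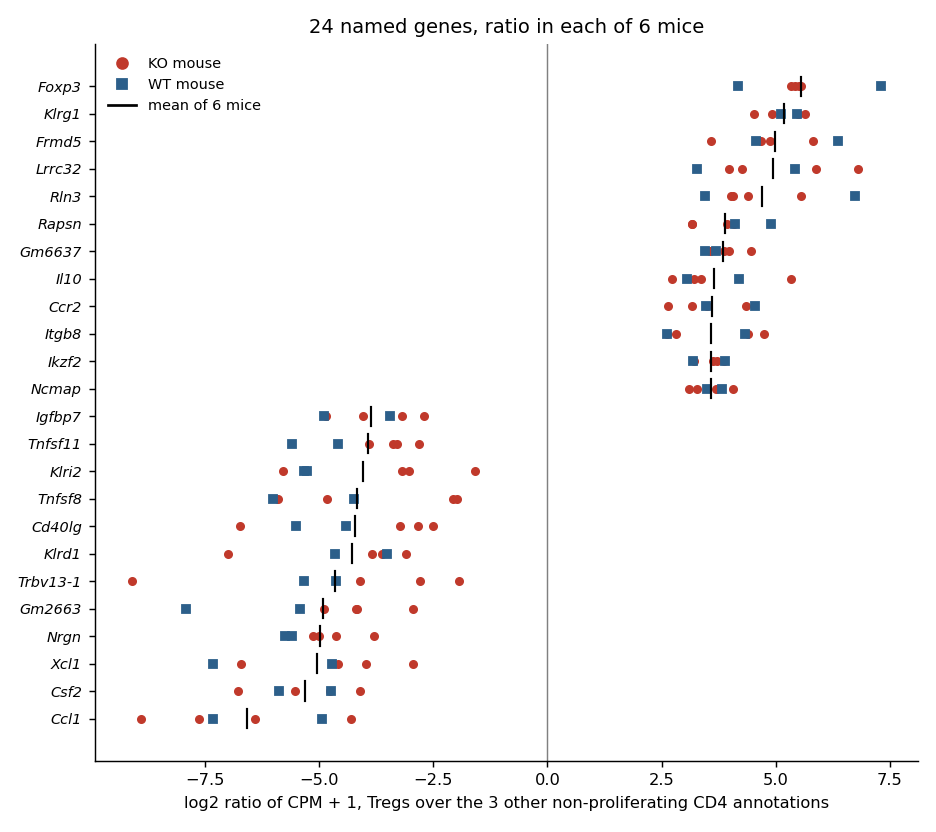
Log2 ratio of CPM + 1 in Tregs over the 3 other non-proliferating CD4 annotations (horizontal axis) for the 12 genes highest and the 12 lowest by the naming rule (vertical axis); circles are KO mice, squares WT mice, bars means of 6 mice. All 6 mice fall on the same side of 0 for each of the 24 genes, with a wide spread for Trbv13-1.

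Among 18 suppressive effectors, of which 17 reached 25 CPM, 7 were at least 2-fold higher in Tregs on average and higher in every mouse, and 1 was lower. Il10 stood at 127, 124, 193 and 149 CPM in KO and 207 and 156 CPM in WT Tregs, against 14.2 ± 7.98 in the other CD4 cells. Gzmb, the cytotoxic protease granzyme B, stood at 2131, 1525, 884 and 1202 CPM in KO and 1783 and 1630 in WT Tregs. No Treg sum overlapped those of the other CD4 cells together for Il10, and the Gzmb ratio was 3.14 ± 0.94 on the log2 scale. Gzmb in Tfh cells was uneven, at 681 CPM in KO replicate 1 and 1122 in WT replicate 3 but 119 to 189 in the other 4 mice.

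The other suppressive genes above 2-fold were Lrrc32, Itgb8, Ctla4, Fgl2 (1.48 ± 0.46), a secreted suppressor of antigen-presenting cells, and Areg (2.40 ± 0.68), the repair factor amphiregulin. Entpd1 (CD39; 0.79 ± 0.32) and Nt5e (CD73; 0.76 ± 0.29), which together make adenosine, were higher in all 6 mice by less than 2-fold. Tgfb1 was nearly level at 0.10 ± 0.10. Il1r2, the decoy receptor for interleukin-1, was lower in all 6 mice (112 against 230 CPM), although Tregs lay above naive/early cells (2.72). Ebi3 was level (-0.00 ± 0.36), and Il12a, which with Ebi3 forms interleukin-35, had no UMI in Tregs of the 6 mice.

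Areg spread widely between mice. It stood at 838, 282, 282 and 652 CPM in KO replicates 1 to 4 and at 648 and 167 CPM in WT replicates 2 and 3, so both genotypes held a high and a low mouse. Klrg1, a receptor of terminally differentiated effector Tregs, ranged from 48.4 CPM in KO replicate 4 to 188 in WT replicate 2, and only 11.5% of thinned Tregs (119 of 1033) had a UMI of it, against 0.0803% of Th1 and 0.154% of Tfh cells.

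Of 26 genes of tissue-resident effector Tregs, 10 were at least 2-fold higher in Tregs on average and higher in every mouse, and 2 were lower; of the 21 that reached 25 CPM, 8 were higher by this rule. Besides Areg and Klrg1, they included Itgae (CD103, an integrin that binds E-cadherin; 3.47 ± 0.53), Ccr2 (3.61 ± 0.72), the transcription factors Maf (1.90 ± 0.32) and Prdm1 (Blimp-1; 1.01 ± 0.35), and Il1rl1, the interleukin-33 receptor ST2 (1.06 ± 0.61, at 24.8 CPM in Tregs). Ccr8, a chemokine receptor commonly used to mark tumor Tregs, did not set them apart here: it was 331 ± 50.3 CPM in Tregs and 288 ± 75.5 in the other CD4 cells, 2.99 log2 units above naive/early cells but -0.01 against Th1 cells. Batf, Ahr and Rora were also level with the other CD4 cells, with mean ratios from -0.10 to 0.01. The 2 lower genes were Penk (-2.40 ± 0.95), which encodes enkephalin, and Cxcr6 (-1.86 ± 0.52), a residency receptor. Penk was 159 ± 67.3 CPM in Tregs, 1258 ± 458 in Th1 and 13.6 in naive/early cells.

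Receptors of the TNF family were higher in Tregs. Of 10 costimulatory receptors and ligands, 7 were at least 2-fold higher on average and higher in Tregs of all 6 mice (6 of the 8 that reached 25 CPM): Tnfrsf4 (OX40; 1.42 ± 0.30), Tnfrsf9 (4-1BB; 1.16 ± 0.36), Tnfrsf18 (GITR; 1.03 ± 0.23), Tnfrsf1b (TNFR2; 1.09 ± 0.21), Tnfrsf8 (CD30; 3.16 ± 0.87), Cd27 (2.26 ± 0.52) and Icos (1.04 ± 0.25), which belongs to the CD28 family. The ligand in the list, Cd40lg, which gives help to B cells and dendritic cells, was the 1 lower gene (-4.21 ± 1.67). It stood at 7.26 ± 6.09 CPM in Tregs and 106 ± 18.2 in the other CD4 cells, with similar means in the naive/early, Tfh and Th1 annotations (107, 115 and 101 CPM).

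Helper functions were the low side of the profile. None of 12 helper cytokine genes was higher in Tregs of all mice and 6 were at least 2-fold lower on average and lower in all, 4 of them among the 4 that reached 25 CPM: Csf2 (-5.30 ± 0.95), Cd40lg, Il21 (-3.53 ± 1.80), Ifng (-3.38 ± 0.87), Il2 (-2.32 ± 0.86) and Tnf (-1.69 ± 0.29). Ifng, the signature cytokine of Th1 cells, was 117 ± 42.8 CPM in Tregs against 1200 ± 400 in the other CD4 cells, and 9.78% of thinned Tregs had a UMI of it against 41.6% of Th1 cells and 0.976% of B cells. Il2 was low everywhere, at 0.689 CPM in Tregs and 7.48 CPM in the other CD4 cells. Of 12 genes of the Th1 program, 7 were lower in Tregs of all mice, 5 of them at least 2-fold on average, and 1 was higher, with a median of -0.68. Of the 11 that reached 25 CPM, 6 were lower in all mice (background 13.2% of genes) and 4 by at least 2-fold, with a median of -0.56. Within the program the Th1 master regulator Tbx21 was level (112 ± 14.9 against 117 ± 14.7 CPM), and its target Cxcr3 was higher in Tregs of all mice (0.98 ± 0.50).

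The 12 genes lowest in Tregs, among those at 50 CPM or more in the other CD4 cells, were Ccl1 (-6.58), Csf2, Xcl1 (-5.05), Nrgn (-4.99), Gm2663 (-4.93), Trbv13-1 (-4.65), Klrd1 (-4.29), Cd40lg, Tnfsf8 (-4.17), Klri2 (-4.03), Tnfsf11 (-3.93) and Igfbp7 (-3.86). Ccl1 is the chemokine ligand of Ccr8; it was 18.4 ± 25.6 CPM in Tregs and 749 ± 498 CPM in the other CD4 cells. The gap depended on the comparator for some of them: Ccl1, Nrgn and Igfbp7 were higher in Tregs than in naive/early cells (0.61, 0.84 and 0.69), which held 6.45, 15.2 and 16.7 CPM of them. Cd40lg, Klrd1 and Tnfsf8 were lower than in all 3 annotations.

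Several markers of resting and of migrating cells were lower in Tregs. Tcf7, a factor of naive and memory cells, was lower in Tregs (-3.81 ± 1.29), as was the survival gene Bcl2 (-2.63 ± 1.02). The integrin chain Itgb7 (2.15 ± 0.42) was higher in all mice, while Itgb1 (-1.92 ± 0.46) and Ccr7 (-1.88 ± 1.08), a lymph node homing receptor, were lower, although Ccr7 lay above naive/early cells (0.56). In the interleukin-2 pathway Il2ra and the kinase Pim1 (1.27 ± 0.15) were at least 2-fold higher, while the shared receptor chains Il2rb (0.16 ± 0.15) and Il2rg (-0.21 ± 0.16) differed little. Nrp1, often used to mark Tregs of thymic origin, was 23.9 ± 15.2 CPM in Tregs against 111 ± 42.8 in the other CD4 cells.

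Interferon response genes were also higher in Tregs. Of the 36 members of a 46-gene list with a mean of 25 CPM or more, 26 were higher in all 6 mice (background 19.3% of genes) and 10 by at least 2-fold. These 10 included the guanylate-binding and immunity-related GTPases Gbp3 (2.10 ± 0.35), Iigp1 (2.20 ± 0.40) and Igtp (1.55 ± 0.39), the exonuclease Isg20 (1.53 ± 0.27) and the transcription factor Irf1 (1.07 ± 0.13). Irf1 was level with naive/early cells (0.10) and highest above Th1 cells (1.56). Of 15 MHC class I genes, 11 were higher in all mice and 0 by 2-fold.

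Markers of other cell types were summed in Tregs and in the other CD4 cells of the same mice. Myeloid markers (12 genes) summed to 1288 to 3447 CPM in KO and 2308 to 2466 CPM in WT Tregs, against 1112 to 3007 and 2390 to 2628 CPM in other CD4 cells. Within mice this sum was higher in Tregs except in WT replicate 3, with the widest gap in KO replicate 1 (3175 against 1112 CPM). The sum of 8 dendritic cell markers was higher in Tregs of every mouse used. It was 768 to 1949 CPM in KO and 1134 to 1284 CPM in WT Tregs, against 443 to 1411 and 809 to 994 CPM. Taken singly, 2 of the 8 genes were higher in Tregs of all 6 mice, 0 of them by 2-fold, and the other 6 were mixed. The B cell sum was higher in Tregs, at 98.5 to 284 against 20.5 to 55.3 CPM, and was mostly Ighm (171 CPM). The sum of 8 tumor and stromal markers was also higher, at 2099 to 3961 against 835 to 1747 CPM, and was mostly the intermediate filament Vim (2811 against 1163 CPM), with Cspg4 and S100b at 0. The CD8 markers Cd8a and Cd8b1 together were 50.6 to 65.6 CPM in KO and 12.9 and 24.8 CPM in WT Tregs. The KO and WT Tregs did not overlap for this sum, as was the case in this direction for 7.36% of all single genes tested. Other CD4 cells held 162 to 306 and 48.6 to 259 CPM of the CD8 markers. The part of these transcripts in the Treg results was not tested. How doublets were treated was not given in the sources used here.

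The first genotype comparison was the share of Tregs. Tregs made up 20.3, 19.7, 15.6 and 29.6% of all CD4 annotations in KO and 4.76, 25.8 and 11.5% in WT mice. The means were 21.3 ± 5.93% (SD, n = 4) and 14.05 ± 10.8% (n = 3), a difference of 7.25 percentage points with overlapping groups (exact permutation test over 35 divisions of the mice, two-sided, p = 0.343, 0.514 adjusted over 3 denominators, where the smallest possible p is 0.0571). Of all T cells the means were 7.51 and 7.47% (exact permutation p = 0.971), and of all cells 4.14 and 2.37% (exact permutation p = 0.343). The WT mice spread from 4.76 to 25.8%, so the difference was smaller than the spread between replicates.

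**Figure D3:**
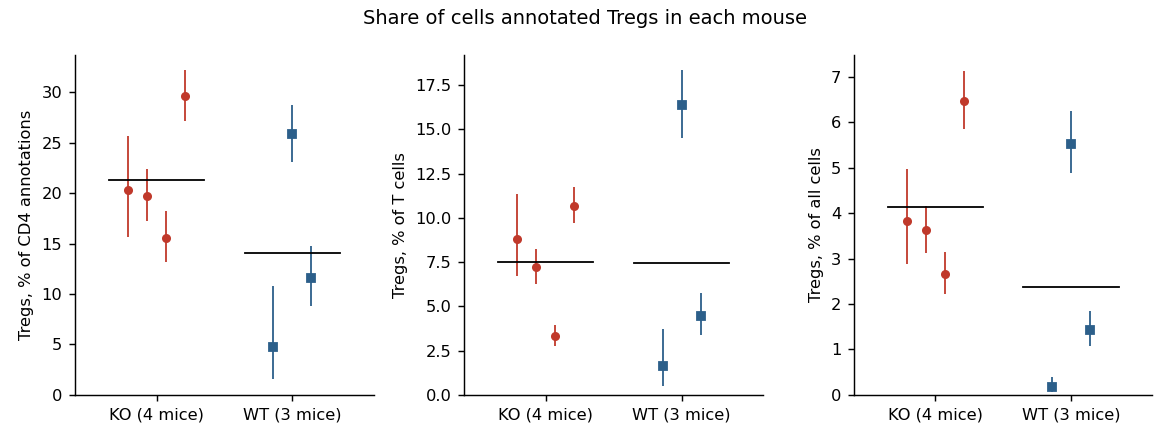
Share of Tregs among the CD4 annotations, T cells and all cells (vertical axes, %, from 0) in 4 KO and 3 WT mice; points are mice with 95% exact binomial intervals for counting error and bars are group means. WT replicate 2 lies at 25.8% of CD4 annotations and WT replicate 1 at 4.76%, on both sides of most KO mice.

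Within Tregs the genotypes differed in few single genes. Of 7306 genes tested with edgeR's quasi-likelihood test, 3 (0.0411%) passed an adjusted p (Benjamini-Hochberg) of 0.05, and 367 had an unadjusted p under 0.05; DESeq2 called 4. The called genes were the T cell receptor variable segments Trbv3 and Trbv26, which rose, and the processed pseudogene Gm6969, which fell. In GRCm38 (GENCODE M21) Trbv3 lies at chr6:41048290-41048828 (+), Trbv26 at chr6:41227505-41227993 (+) and Gm6969 at chr12:24638669-24639010 (-).

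Variable segments are joined into the receptor as a T cell develops, and all descendants of a cell keep the same one. Trbv3 was 215, 142, 151 and 115 CPM in KO and 28.7 and 14.2 CPM in WT Tregs, so the groups did not overlap (log2 fold change 2.60, SE 0.32, adjusted p = 0.0011). A Trbv3 UMI was found in 16.7, 15.1, 15.1 and 9.76% of KO Tregs and in 0, 4.47 and 1.79% of WT Tregs. Trbv26 was 25.3, 53.2, 67.6 and 46.0 CPM in KO and 0 and 7.09 CPM in WT Tregs (log2 fold change 4.78, SE 0.73, adjusted p = 0.0247), and rested on 135 UMIs in the 6 sums. A Trbv26 UMI was found in 1.85, 5.21, 7.94 and 5.54% of KO Tregs and in 20 (1 of 5 cells), 0 and 3.57% of WT Tregs, so these shares overlapped. The segment with the most UMIs differed between mice: Trbv3 in KO replicates 1 and 4, Trbv1 in KO replicates 2 and 3, Trbv29 in WT replicate 2 and Trbv19 in WT replicate 3. With the proliferating mixture added, neither segment was called (Trbv3 at 1.53 log2 units or more in all 15 alternatives, Trbv26 called in 9 of them). Alternatives with a minimum of 10 or of 50 cells per library kept the same 6 mice and repeated the main fit. A gene called in the main fit is thus called in them too. Trbv26 was also not called without KO replicate 2, KO replicate 3 or WT replicate 2, or with WT replicate 1 kept, and its log2 fold change ran from 2.77 to 8.18 over the alternatives.

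Gm6969 was 3.16, 12.5, 15.4 and 19.7 CPM in KO and 73.2 and 81.5 CPM in WT Tregs (log2 fold change -2.37, SE 0.33, adjusted p = 0.0019). It was also the 1 gene called in the other CD4 cells of the same mice (-2.94, SE 0.29, adjusted p = 0.0190), so it is not a Treg change alone. Of its Treg UMIs, 46.3% were in values that were not whole numbers, against 5.79% over all genes, and reads of a pseudogene can be shared with near-identical copies, so its level is uncertain.

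Interferon response genes were lower in KO Tregs as a group, and edgeR called none by itself. Of 43 members tested, 0 were called, 43 were lower (48.8% of all genes were), 29 had an unadjusted p under 0.05 and were lower (2.52% of all genes), and in 34 every KO mouse lay below every WT mouse (7.66% of all genes). The median log2 fold change was -0.68 against 0.01 over all genes tested. Members were called under some other settings: 1 by DESeq2, 1 with a replicate block, 1 with sex as a term, 12 without a filter on low counts, 3 without KO replicate 4 and 1 without WT replicate 2. Without WT replicate 2 the members with an unadjusted p under 0.05 numbered 14 of 44. The replicate block held KO replicates 2 and 3 and WT replicates 2 and 3 only. With the proliferating mixture added, 37 of 44 were lower, 7 had an unadjusted p under 0.05, 0 were called and the median was -0.36. The list was chosen with earlier results of these data known, among them lower interferon genes in T cells of KO mice, so its direction is not independent evidence.

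The mean log2(CPM + 1) over the 43 members was 5.91, 6.21, 6.18 and 6.47 in KO and 6.98 and 6.94 in WT Tregs; the 5 Tregs of WT replicate 1, outside the fit, gave 6.79. All KO mice were thus below all WT mice. Rtp4, an interferon-induced chaperone of receptors, was 41.1, 34.4, 67.6 and 61.6 CPM in KO and 127 and 110 CPM in WT Tregs (-1.20, SE 0.25, edgeR adjusted p = 0.13). The highest KO mouse lay below the lowest WT mouse.

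Other members with small p were Trim30a, a restriction factor (-0.86), Oas1a, of the double-stranded RNA sensing synthetases (-1.03), Slfn1 (-1.02) and Bst2, the virus tether tetherin (-0.93). Bst2 was 130, 221, 124 and 199 CPM in KO and 298 and 362 CPM in WT Tregs. None of these passed (edgeR adjusted p from 0.332 to 0.398).

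**Figure D4:**
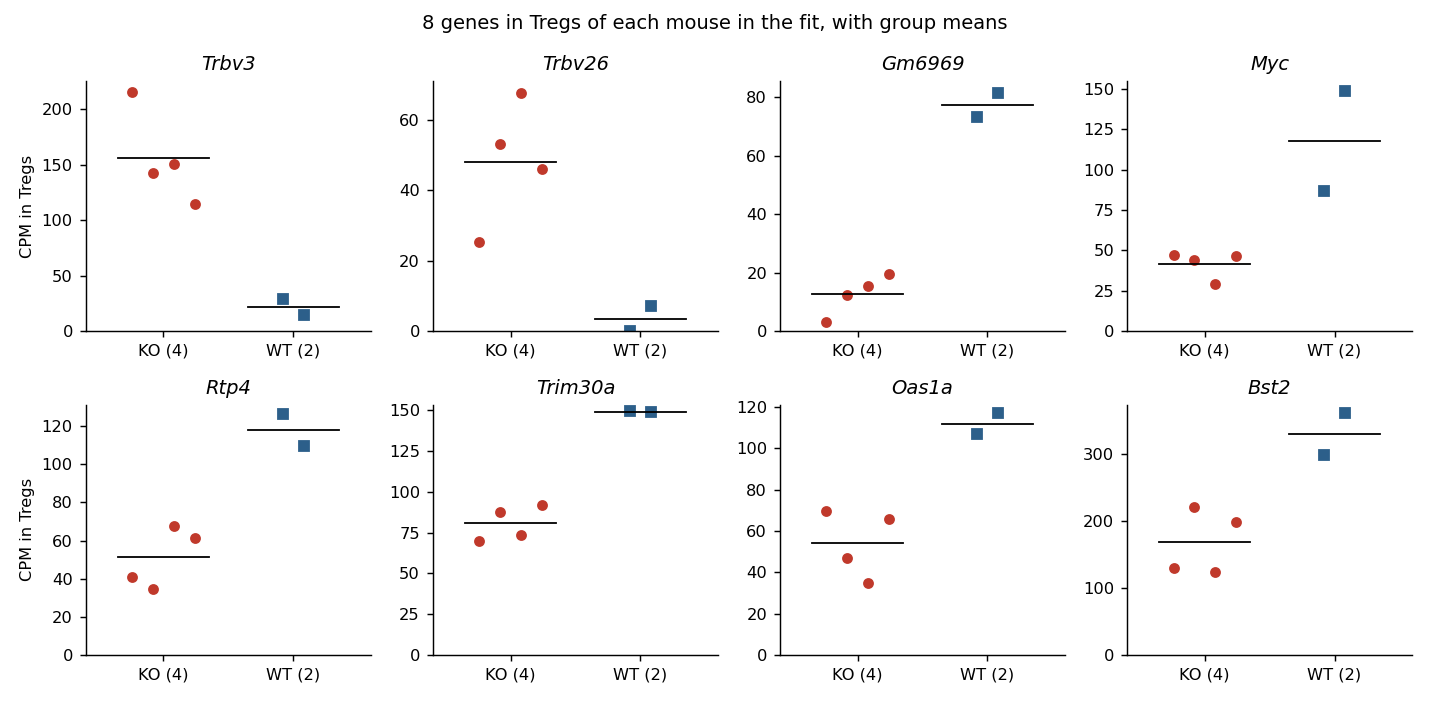
CPM in Tregs (vertical axes, from 0) of 8 genes in the 4 KO mice (circles) and 2 WT mice (squares), with group means as bars. The first 3 genes were called and the other 5 were not; Trim30a is near 149 CPM in both WT mice and at or below 91.9 CPM in the KO mice.

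Interferon-stimulated genes are switched on through a short element bound by complexes that hold IRF proteins, written here as GAAANNGAAA on either strand (TTTCNNTTTC on the other). It was found in the RefSeq promoter window (250 bases before to 50 after the start, GRCm38.p6) of 23 of the 32 tested interferon members that have a window (71.9%), against 1079 of 27025 genes (3.99%). To show how the element looks in genes of this group, stretches are printed for the 4 members with the smallest KO against WT p among those with a match wholly before the start, with capitals marking the match, or overlapping matches; each starts 45 bases before the first match. They lie at chr7:104465194-104465274 (Trim30a), chr5:120907526-120907590 (Oas1a), chr8:71537542-71537647 (Bst2) and chr1:173942493-173942572 (Ifi203), all on the minus strand and written 5′ to 3′ along the gene. A match is a description of the letters and not a measured binding site.

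Trim30a: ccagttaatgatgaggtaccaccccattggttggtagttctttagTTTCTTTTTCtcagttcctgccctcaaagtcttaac
Oas1a: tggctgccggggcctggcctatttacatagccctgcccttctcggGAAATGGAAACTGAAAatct
Bst2: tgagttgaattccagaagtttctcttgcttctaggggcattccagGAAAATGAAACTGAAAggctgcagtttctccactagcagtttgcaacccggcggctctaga
Ifi203: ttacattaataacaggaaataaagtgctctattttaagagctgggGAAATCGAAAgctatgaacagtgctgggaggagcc

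The 4 stretches differ in how the element is set. Oas1a and Bst2 hold 2 overlapping matches in the gene's own direction, Ifi203 holds 1, and in Trim30a the single match reads on the opposite strand.

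In the other CD4 cells the median log2 fold change of the same 43 genes was -0.20, with 35 of 43 lower (3574 of all 7279 genes were). The mean log2(CPM + 1) was 5.52, 5.59, 5.73 and 5.84 in KO and 6.02 and 5.79 in WT, with overlap. The 89 other CD4 cells of WT replicate 1, outside the fit, gave 6.32, above every KO mouse. The difference of the genotype effects was tested with a class-by-genotype term in edgeR. Of 10085 genes, 2 (0.0198%) were called and 473 (4.69%) had an unadjusted p under 0.05; DESeq2 called 3. Of 45 interferon members tested, 0 were called and 22 had an unadjusted p under 0.05. A difference below 0 was found for 42 of the 45 (4952 of all 10085 genes), with a median of -0.41. Both classes come from the same 6 mice.

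The 2 called genes were the T cell receptor segment Trav9-1 (-5.19, edgeR adjusted p = 1.29e-04) and the immunoglobulin kappa segment Igkv1-110 (-3.82, edgeR adjusted p = 5.90e-04). Trav9-1 had 0, 19, 1 and 2 UMIs in KO and 6 and 17 in WT Tregs, against 1, 180, 58 and 23 in KO and 5 and 4 in WT cells of the other annotations. Igkv1-110 had UMIs in KO replicate 4 and WT replicate 2 alone (19 and 24 in Tregs, 560 and 53 in the other CD4 cells). Both rest on few mice.

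No gene that defines or equips Tregs was called between genotypes. Of 20 tested identity genes, 0 were called, 10 were higher and 10 lower in KO, with a median log2 fold change of -0.00. The medians were -0.09 over 17 suppressive effectors and -0.01 over 24 tissue effector genes, with 0 called in each. Of the suppressive effectors 13 were lower in KO (48.8% of all genes were), 0 of them with an unadjusted p under 0.05. Over the alternatives 8 (WT replicate 1 kept) to 15 (replicate block, or without KO replicate 1) of the 17 were lower. Of the tissue effector genes 13 were lower. Foxp3 differed by -0.16 (SE 0.20), Il2ra by -0.23 (SE 0.21), Ctla4 by -0.03 (SE 0.17) and Ikzf2 by 0.03, none of them called and all with overlapping CPM between groups. Il10 (-0.33, SE 0.21), Gzmb (-0.26, SE 0.34), Areg (0.24, SE 0.81) and Klrg1 (-0.69, SE 0.57) were likewise not called. Shares of Tregs with a UMI did not overlap between genotypes for Il10 and, after thinning, for Il2ra. No test was made, and such shares were not counted over all genes. By CPM both genes overlapped, and every KO mouse lay below every WT mouse in 7.66% of all genes tested. After thinning, an Il10 UMI was found in 7.41, 13.4, 11.9 and 16.2% of KO Tregs and in 20 (1 of 5 cells), 24.1 and 17.9% of WT Tregs, against 0.884% of naive/early, 1.46% of Tfh, 1.61% of Th1 and 1.10% of B cells (8.69% of B cells unthinned). The unthinned Il10 shares were 21.9 to 25.9% in KO and 35.7 to 40% in WT. An Il2ra UMI was found in 52.4 to 59.3% of thinned KO Tregs and in 80 (4 of 5 cells), 61.0 and 71.4% of WT Tregs, while the unthinned shares overlapped. Icos was the identity gene with the smallest p, at 1310, 1200, 1615 and 1489 CPM in KO and 1209 and 932 CPM in WT Tregs (0.37, SE 0.17, edgeR adjusted p = 0.977).

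**Figure D5:**
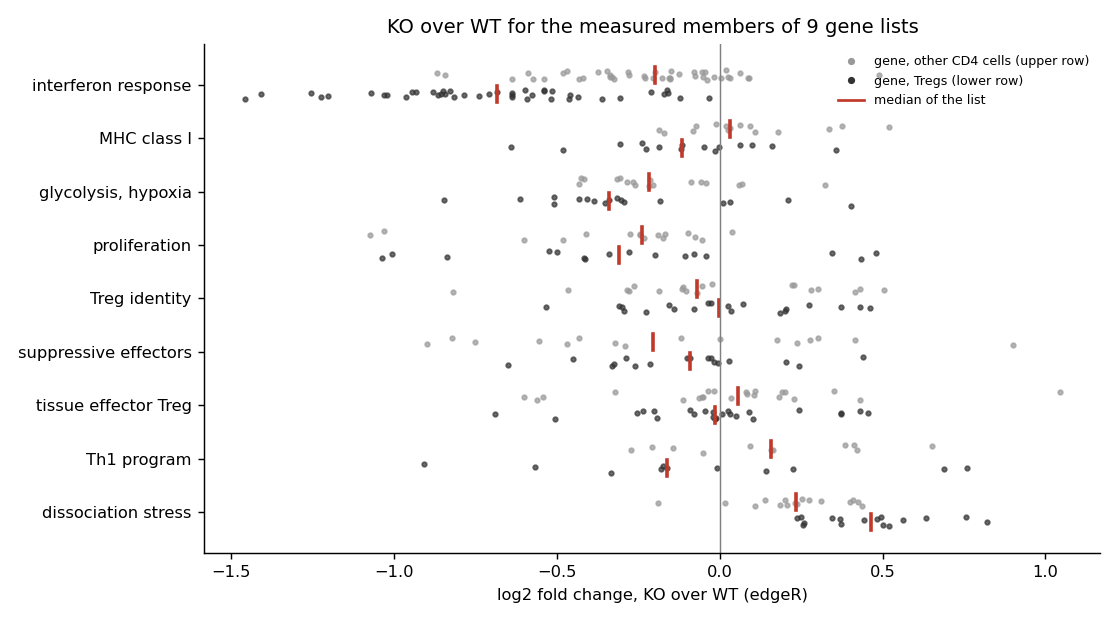
Log2 fold change of KO over WT (horizontal axis, edgeR) for the members of 9 gene lists (vertical axis) that were tested in Tregs; dark points are genes in Tregs, grey points the same genes in the other CD4 cells, and red bars are list medians. The interferon list lies below 0 in Tregs (median -0.68) and closer to 0 in the other CD4 cells (-0.20), while the identity and effector lists are centered near 0.

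Among the genes next in order of p, none of which was called, Myc, the growth regulator, was 47.5, 43.8, 29.0 and 46.8 CPM in KO and 87.1 and 149 CPM in WT Tregs (-1.39, SE 0.26, edgeR adjusted p = 0.0636). Myc was called in 4 of 15 alternatives (without a filter on low counts, with sex as a term, without KO replicate 4 and without WT replicate 2), with log2 fold changes from -1.80 to -1.07 over all 15. These 15 include the repeats of the main fit. Asb2, a ubiquitin ligase subunit, was lower (-1.37, SE 0.29, edgeR adjusted p = 0.154) and was called without a filter on low counts. Zc3h6, a zinc finger gene, was higher (2.12, SE 0.51, edgeR adjusted p = 0.371). Of 17 glycolysis and hypoxia genes, 13 were lower (48.8% of all genes were) and 0 called, with a median of -0.34. Of these, 3 were lower with an unadjusted p under 0.05 (2.52% of all genes) and in 5 every KO mouse lay below every WT mouse (7.66%). With the replicate block, which leaves out KO replicates 1 and 4, 1 was called and 9 had an unadjusted p under 0.05. Without a filter on low counts 1 was called, and with WT replicate 1 kept 0 had an unadjusted p under 0.05. Pgk1, which makes ATP in glycolysis, stood at 408, 238, 220 and 316 CPM in KO and 477 and 581 CPM in WT Tregs. The groups did not overlap for it. In the other CD4 cells of the same mice, 14 of the 17 glycolysis and hypoxia genes were lower (3574 of all 7279 genes were). Their median there was -0.22.

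Cd8a (3.01) and Cd8b1 (1.43) were higher in KO Tregs, with no overlap (as for 7.36% of all genes in this direction), and edgeR did not call them. Cd8a rested on 62 UMIs, with 0 in WT replicate 2. It was 1.03 without WT replicate 2, 7.02 and called without WT replicate 3 (edgeR adjusted p = 0.0061), and called without a filter on low counts (2.99, edgeR adjusted p = 0.0109). It did not pass in the other 9 of 11 alternatives that tested it. A Cd8a or Cd8b1 UMI was found in 18.5, 10.9, 22.2 and 14.5% of KO Tregs and in 0, 4.88 and 8.93% of WT Tregs. In B cells, which should lack both genes, UMIs of them were found as well. After thinning, a Cd8a UMI was found in 3.13, 7.32 and 2.58% of B cells in KO replicates 2 to 4 (0 of 8 in KO replicate 1) and in 0, 0.567 and 0% in WT, against 1.85 to 3.97% of KO Tregs and 0 in WT Tregs. The thinned Cd8b1 share was 2.21 to 3.13% of B cells in KO replicates 2 to 4 and 0 to 1.06% in WT, against 0 to 7.14% of KO and 0 to 5.36% of WT Tregs. Unthinned, a Cd8a UMI was found in 0, 5, 14.6 and 5.86% of KO and 0, 1.96 and 8% of WT B cells, so the B cell groups overlapped. The Cd8a shares of Tregs lay within the range of B cells, and the highest Cd8b1 shares of Tregs above it. No test of these shares was made. With those cells removed, the median of the interferon list was -0.70, and Trbv26 was no longer called. Dissociation stress genes, which respond to tissue handling, were higher in KO for 16 of 16 members (51.2% of all genes were higher) with 0 called. Of these, 3 had an unadjusted p under 0.05 (2.5% of all genes, in this direction) and 4 had every KO mouse above every WT mouse (7.36% of all genes). The median was 0.46, and this rested on WT replicate 3: the median was 0.07 without it and 0.83 without WT replicate 2. In the other CD4 cells of the same mice the median of this list was 0.24, with 1 of 16 members lower (3574 of all 7279 genes were). The part of handling in the other differences was not tested. For the interferon list the median was between -0.59 and -0.73 when any 1 mouse was left out.

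Proliferation genes had a median of -0.31 over 16 tested members with 0 called, and it was 0.16 without WT replicate 3 and -1.18 without WT replicate 2. In the other CD4 cells of the same mice the median of these 16 genes was -0.24, with 15 lower (3574 of all 7279 genes were). By the authors' phase calls, 18.5, 23.96, 24.6 and 34.04% of KO Tregs and 0, 17.1 and 26.8% of WT Tregs were in S or G2/M phase, with overlapping groups. Mean log2(CPM + 1) of the same genes was highest in WT replicate 3 (6.29) and lay between 5.08 and 5.78 in the other 5 mice.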

How the data were processed

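The authors deposited 1 matrix of expected counts, which are unscaled UMIs of each gene in each cell and in part fractional, and a cell table with library, annotation, phase and the mitochondrial and ribosomal percent of counts. Per the submitters' processing notes the tools were STARsolo, STAR 2.7.10a and FastQC 0.11.5, with build mm10; the counting settings and cell filters were not given in the sources used here. Each column of cells belonged to 1 of the 7 libraries (0 others).

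UMIs were summed per mouse over Tregs and over the naive/early, Tfh and Th1 annotations, and each sum was rounded to a whole number; the plan had been laid out for counts. Libraries with fewer than 20 Tregs were left out (WT replicate 1). KO was tested against WT with edgeR 4.0.16 (TMM, filterByExpr, robust quasi-likelihood, genotype term), with calls at 0.05 after Benjamini-Hochberg adjustment. The difference of effects was the interaction of class and genotype, with mouse and class as further terms. DESeq2 1.42.0 was an alternative. Levels between annotations are per-mouse ratios with no test. The self-test on simulated data recovered 38.0% of genes changed by 1 log2 unit and 93.7% of those changed by 2 for KO against WT, and 7% and 75% for the difference of effects. In the simulation of KO against WT, 16 of 6826 unchanged genes were called as well.

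The members and gene lists were chosen with earlier results of these data known. Genes were named if they were members of the 3 Treg lists; among the 12 with the highest or lowest ratio at 50 CPM or more with 1 direction in every mouse; called, or among the 5 smallest p-values of a direction with fewer than 5 calls; or list members at least 2-fold apart on average with 1 direction in every mouse (up to 6 a list). Tbx21, Cxcr3, Pgk1, Trim30a, Oas1a, Slfn1, Bst2 and other list members outside this rule were chosen after their values were seen. Promoter sequences are RefSeq's (GRCm38.p6). The values of a few genes of these lists are not reported here.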

Additional observations from a re-analysis of the deposited data

Results flagged for a closer look

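Within the 4 KO mice, 6 of 70 groups of values held a mouse far from the other 3, by a rule that chance meets in about 1 of 20 groups. Itgb8 was 212 CPM in Tregs of KO replicate 1, above the others. KO replicate 2 stood apart for Ccl1 (53.2 CPM, above the others), Asb2 (17.2 CPM, below) and Slfn1 (43.8 CPM, above). KO replicate 1, the smallest KO library in Tregs, was low for Klrd1 (3.16 CPM) and Cd40lg (0 CPM).

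The edgeR test of the difference of genotype effects between Tregs and the other CD4 cells called Trav9-1 (-5.19 log2 units) and Igkv1-110 (-3.82 log2 units, UMIs in 2 of 6 mice). For Trav9-1, the other CD4 cells held 180 UMIs in KO replicate 2, against 1, 58 and 23 in KO replicates 1, 3 and 4. Both segments thus rest on few mice.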

How the results depend on the processing

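The count of genes called KO against WT in Tregs (3) was 40 without a filter on low counts, 15 with a replicate block, 6 with sex as a term, 1 with the proliferating mixture added, and 2 to 13 when 1 mouse was left out (2 without KO replicate 2 or 3, 6 without KO replicate 1, 13 without KO replicate 4, 8 without WT replicate 2 and 11 without WT replicate 3, where the lone WT mouse is assumed to vary like the KO mice). The count for the difference of effects (2) was 32 without a filter, 4 with the proliferating annotation among the other CD4 cells, 5 without Tregs holding a Cd8a or Cd8b1 UMI (added after seeing the data), and 2 to 9 when 1 mouse was left out. The replicate block held KO replicates 2 and 3 and WT replicates 2 and 3 only, so it also leaves out KO replicates 1 and 4. The cause of these moves was not tested.

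The replicate numbers of the labels are not said to pair the mice. Treg deviations of same-numbered mice correlated at -0.10 (number 2) and -0.06 (number 3) over 7306 genes. With 2 WT mice the WT deviations mirror each other, so the swapped pairs gave 0.10 and 0.06. These values therefore cannot tell whether the numbers pair the mice. With the replicate block of KO and WT replicates 2 and 3 the list medians were -0.28 for suppressive effectors and -0.51 for glycolysis. For the Treg share the block held replicates 1 to 3 of each genotype, and the difference was 4.48 points. Other list medians that moved were the interferon list with the proliferating mixture (-0.36), glycolysis with WT replicate 1 kept (-0.19), the interferon list over all members tested in other CD4 cells (-0.22), dissociation stress (0.069 to 0.83 over left-out mice) and proliferation (-1.18 to 0.16). Against naive/early cells alone, 393 genes were higher in Tregs (185 against the 3 annotations; 133 shared), and Ccl1 (0.61), Nrgn (0.84) and Igfbp7 (0.69) turned.

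For uncalled genes near 0 the sign of KO against WT turned. Foxp3 ran from -0.33 to 0.046 over left-out mice. Ctla4 was 0.21 with the proliferating mixture, 0.079 with WT replicate 1 kept, and -0.15 to 0.093 over left-out mice. Ikzf2 was -0.048 with the block, -0.015 with WT replicate 1 kept, and -0.13 to 0.22 over left-out mice. Areg was -0.35 with the block, -0.13 with the mixture, and -0.37 to 1.63 over left-out mice. Trbv3 passed in 14 of 15 alternatives, Trbv26 in 9 and Gm6969 in 15. Among the 15, those with a minimum of 10 or of 50 cells repeat the main fit, so genes called there pass in them too. The fits hold 2 WT mice.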

Other observations

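A few genes outside the lists of T cell biology also set Tregs apart from the other CD4 cells of the same mice; they were chosen after their values were seen. Ighm, the immunoglobulin mu heavy chain, was 171 ± 54.9 CPM in Tregs against 26.2 ± 9.88 CPM in the other CD4 cells (log2 ratio 2.67, 6 of 6 mice). Vim, the intermediate filament vimentin, was 2811 ± 766 against 1163 ± 352 CPM (1.29, 6 of 6 mice), and Bnip3, a hypoxia-induced mitophagy receptor, 99.6 ± 39.9 against 36.3 ± 22.1 CPM (1.49, 6 of 6 mice). Receptors for sialic acids were close to absent: all Tregs together held 30 UMIs of Siglech, 21 of Cd33, 16 of Siglece, 13 of Siglec1 and 3 each of Cd22 and Mag, and 0 of Siglecf, Siglecg and Siglec15.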
